A study of Homo sapiens with 11 samples.

Results

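Isolated H3K4me3-only regions were stretches of the HK2 genome that carried H3K4me3 and lay away from H3K27ac and H3K27me3 as called in both replicates. They were chosen by the peaks themselves: hg19 chromosomes 1 to 22 and X were divided into bins of 200 bp, a mark was called on where its peaks covered at least 100 bp of a bin in both replicates, and adjacent bins with H3K4me3 on and the other marks off were joined. A joined region was kept where no bin with H3K27ac on or H3K27me3 on lay within 2 kb of either edge. This gave 4084 isolated regions of 19618 H3K4me3-only regions, and of 34115 regions of all 5 classes with H3K4me3 on. HK2 is an immortalised line of human proximal tubule epithelial cells, and all samples came from HK2 cells grown with 0.05% DMSO in the medium under 1 condition. ChIP-seq peak lists came from 2 replicates of each mark, and RNA-seq from 2 libraries. Nothing in the labels says that replicates were separate cultures, so the spread between them may be technical. The replicate of each mark that has no number in its label is called replicate 1.

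H3K4me3 is the trimethylated lysine that marks the first nucleosomes downstream of transcription start sites (TSS), and in mammals it also follows unmethylated CpG islands, whether or not the gene is transcribed. H3K27ac, an acetylation of another lysine on the same histone tail, accompanies H3K4me3 at active promoters, while H3K27me3, laid down by Polycomb complexes, accompanies it at bivalent promoters.

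The isolated regions were promoter-sized, and 3034 of the 4084 had an annotated TSS within 1 kb. Their base composition and some of the letters in them can be read from 3 stretches upstream of a canonical TSS, on GRCh37/hg19 and in the direction of the gene. They are shown because COX6A1, TUBA1A and ITM2C were among the 10 genes of highest FPKM with such a promoter. Capitals mark matches to GGGCGG (Sp1 site), CCGGAAG (ETS site), CCAAT (NF-Y site) and GCATGCGC (NRF1 site) on either strand. The stretches are chr12:120875716-120875915 (+ strand) for COX6A1, chr12:49582864-49583063 (− strand) for TUBA1A and chr2:231729517-231729656 (+ strand) for ITM2C.
COX6A1: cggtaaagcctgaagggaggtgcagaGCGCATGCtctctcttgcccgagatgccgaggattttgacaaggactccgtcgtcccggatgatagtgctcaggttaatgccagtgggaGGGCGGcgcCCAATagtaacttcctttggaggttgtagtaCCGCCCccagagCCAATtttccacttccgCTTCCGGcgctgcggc
TUBA1A: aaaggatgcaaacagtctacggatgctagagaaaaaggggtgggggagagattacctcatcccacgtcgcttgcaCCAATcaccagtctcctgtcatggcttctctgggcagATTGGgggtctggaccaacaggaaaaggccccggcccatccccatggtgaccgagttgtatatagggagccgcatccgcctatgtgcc
ITM2C: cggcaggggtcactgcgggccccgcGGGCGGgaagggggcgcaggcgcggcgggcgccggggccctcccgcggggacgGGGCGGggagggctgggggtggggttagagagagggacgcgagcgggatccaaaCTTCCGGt
The COX6A1 stretch held 6 matches of 4 kinds. The TUBA1A stretch, of 56.0% GC, held 2 matches to the NF-Y letters only.

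Among the isolated regions without a TSS, the widest included a pair on chromosome 1 that held the letters of the B box of tRNA genes, GGTTCGA. The B box is an internal promoter element of genes that RNA polymerase III transcribes. A stretch around the match nearest to the midpoint is shown for each, with the B box letters in capitals, at chr1:161424748-161424857 (− strand) and chr1:149298547-149298656 (− strand).
Chromosome 1, 2400 bp region: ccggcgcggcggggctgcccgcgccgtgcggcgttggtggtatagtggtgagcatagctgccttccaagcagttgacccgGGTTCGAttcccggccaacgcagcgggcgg
Chromosome 1, 2200 bp region: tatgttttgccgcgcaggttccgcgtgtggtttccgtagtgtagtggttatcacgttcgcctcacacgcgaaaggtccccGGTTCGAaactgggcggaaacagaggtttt
No annotation of tRNA genes was used here, so these are matches of letters. The 2400 bp region held 4 such matches. Over all 1050 isolated regions without a TSS, 26 held at least 1 match anywhere in the region (2.48%, 95% Wilson interval 1.70 to 3.60), against 120 of the 3034 with a TSS (3.96%), which were wider. Among regions without a TSS in the other classes the share was 1.93 to 2.68%, near that of the isolated regions. Of the 26, 5 were on chromosome X.

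The median isolated region was 800 bp wide, with quartiles of 600 and 1200 bp, a maximum of 5000 bp and 3.746 Mb covered in all. The median was 400 bp for H3K4me3-only regions with H3K27ac within 2 kb (n = 14573), and 600 bp for regions with H3K4me3 and H3K27ac (n = 12871), for those with H3K4me3 and H3K27me3 (n = 1626), and for H3K4me3-only regions with only H3K27me3 within 2 kb (n = 961). The same rule divides a stretch with H3K4me3 into bins with and without H3K27ac, and 13952 of those near H3K27ac touched an H3K27ac-on bin directly. Over all H3K4me3-only regions, 14612 touched an on bin of another mark. Whether the touching bins belonged to an active promoter was not computed. The H3K4me3 peaks under the isolated regions were narrower than those under regions with H3K27ac in each replicate. Their median width was 1373 bp against 2522 bp in replicate 1, and 930 bp against 1495 bp in replicate 2. Width was set by the peaks that chose the regions and is given as a description.

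**Figure D1:**
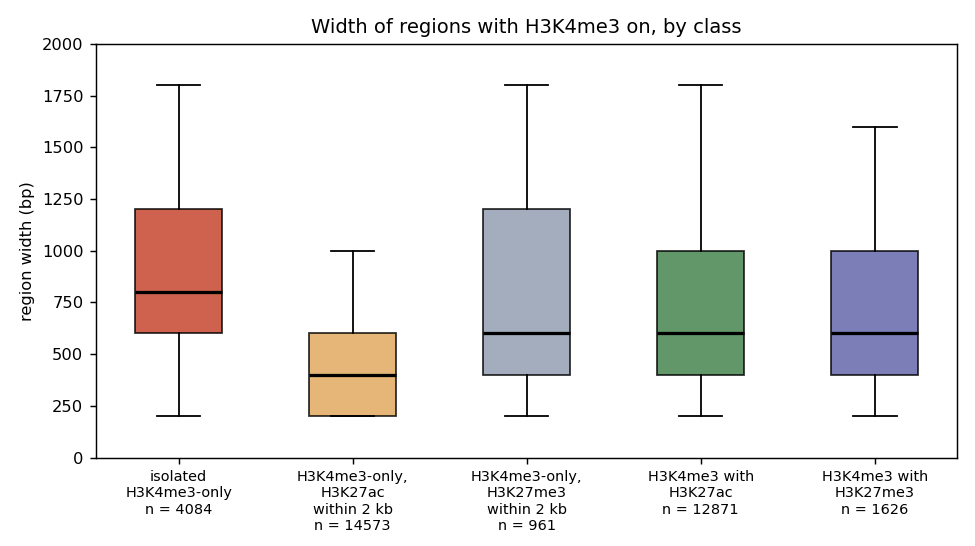
Width in bp (vertical axis) of the regions of each class with H3K4me3 on. Boxes give the quartiles with the median as a black line, and whiskers the 5th and 95th percentiles. The isolated regions have a median of 800 bp, against 400 to 600 bp in the other classes.

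The rule kept bins with another mark on in both replicates at least 2 kb away. The nearest H3K27ac-on bin lay at a median of 33.4 kb and the nearest H3K27me3-on bin at 118.6 kb. Peaks of a single replicate could be closer: a peak of H3K27ac replicate 1 lay within 2 kb of 2864 isolated regions (70.1%). Near the threshold, 192 isolated regions had the closest on bin 2000 to 2800 bp away, with a median width of 800 bp and a TSS within 1 kb in 65.6%. The 255 H3K4me3-only regions just outside the rule, with an on bin 1000 to 1800 bp away, had a median width of 600 bp and a TSS in 67.8%.

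A mark counted as off where only 1 replicate had a peak, and for H3K27ac the replicates were far apart at these regions. In the study's sequencing summary these H3K27ac replicates had similar numbers of aligned read pairs, and the share of reads in peaks was far lower in replicate 2. A peak of H3K27ac replicate 1 overlapped 2755 of the 4084 isolated regions (67.5%), and a peak of replicate 2 overlapped 76 (1.86%). The replicate 1 peak was no clip at the edge: it covered a median of 85.4% of the region and the whole of 806 regions. These peaks had a median width of 1032 bp, against 2299 bp for replicate 1 peaks at regions with H3K27ac on in both replicates. In all, 2754 regions had an H3K27ac peak in replicate 1 only, 75 in replicate 2 only, 1 in both lists but in different bins, and 1254 in neither. The lists differ over the whole genome too, with 57521 used peaks of median width 1359 bp in replicate 1 and 38484 of 658 bp in replicate 2. For H3K27me3, replicate 1 overlapped 65 regions and replicate 2 overlapped 233. Only 813 of the isolated regions (19.9%) had no peak of either mark from either replicate within 2 kb, so "H3K4me3-only" describes the calls in both replicates rather than each peak list. Counting H3K27ac and H3K27me3 as on where either replicate had them left 819 regions, and calling all marks from replicate 1 alone or replicate 2 alone gave 3109 or 49382. The single-replicate calls changed the H3K4me3 list as well. It held 28550 used peaks of median width 1197 bp in replicate 1 and 73450 of 434 bp in replicate 2.

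**Figure D2:**
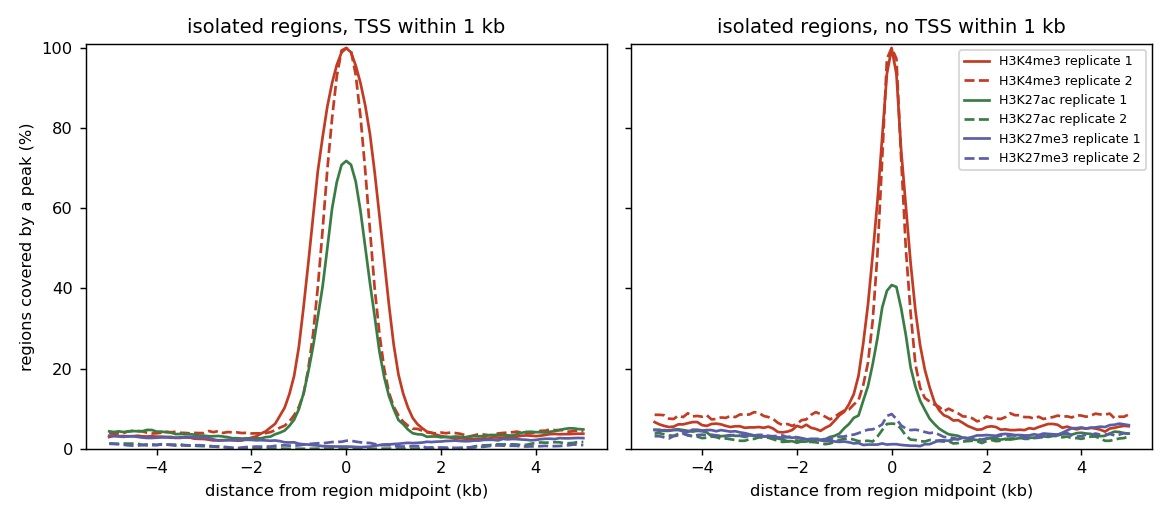
Percent of the isolated regions covered by a peak (vertical axis) at each distance from the region's midpoint in kb (horizontal axis), for each mark and replicate, with 3034 regions that have a TSS within 1 kb on the left and 1050 without on the right. At the midpoint, H3K27ac replicate 1 covers 71.8% of the former and 40.9% of the latter, while H3K27ac replicate 2 covers 0% and 6.29%.

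The 75 regions with H3K27ac in replicate 2 only stood apart from the rest in position. Of these, 72 (96.0%) lay within 1 Mb of a gap of the reference, a run of at least 1 kb of undetermined bases, and 31 (41.3%) within 10 kb. Over all isolated regions the shares were 21.8% and 1.67%. Their median GC content was 38.8% against 63.3% over all isolated regions, and 63 of the 75 also had an H3K27me3 peak in replicate 2. Only 4 had a TSS within 1 kb. The part of the gaps in these peaks was not tested.

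Most isolated regions lay at gene starts. A TSS of any gene type lay within 1 kb of 74.3% (72.9 to 75.6, 95% Wilson interval), and a protein-coding TSS within 1 kb of 61.9%. The corresponding shares were 93.1% and 87% for regions with H3K4me3 and H3K27ac, 81.6% and 71.3% for regions with H3K4me3 and H3K27me3, and 77.7% (75 to 80.2) and 66.9% for H3K4me3-only regions with only H3K27me3 within 2 kb. The intervals cover counting error only, and neighbouring regions are not independent. The share with any TSS was 27.1% among isolated regions called from replicate 1 alone, 20.6% from replicate 2 alone and 57.8% where either replicate sufficed for H3K27ac or H3K27me3. A TSS lay inside 2630 isolated regions, and in 404 more it lay outside but within 1 kb. Where a canonical protein-coding TSS was within 1 kb (2280 pairs), the midpoint of the region lay downstream of it in 75.7%, at a median of 168 bp.

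Protein-coding genes were not the only ones. A lncRNA TSS lay within 1 kb of 828 isolated regions (20.3%), a pseudogene TSS within 1 kb of 183 and a miRNA hairpin start within 1 kb of 45. In genes, the isolated regions reached 2607 of 20098 protein-coding genes (13.0%), 836 of 18592 lncRNA genes (4.50%) and 43 of 3029 miRNA genes. A region counts under each gene type it reached, and 256 regions reached at least 2 protein-coding genes.

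Of the 1050 isolated regions without a TSS within 1 kb, 611 were intergenic (58.2%), 295 lay in introns only and 144 overlapped an exon. Their median width was 400 bp, against 1000 bp for those with a TSS. H3K27ac replicate 1 peaks overlapped 43.7% of them, against 75.7% of those with a TSS. The nearest TSS was at a median of 8448.5 bp, and for 30 it was over 200 kb away.

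The 5 widest isolated regions without a TSS differed in what surrounded them. The widest, of 3400 bp at chr6:58776201-58779600, was intergenic, began 63124 bp from the nearest TSS and ended 566 bp from a gap of the reference. No H3K27ac or H3K27me3 peak of replicate 1 overlapped it, while replicate 2 peaks of these marks covered 3062 and 3094 bp of it. The region of 2400 bp at chr1:161423801-161426200, shown above with its B box letters, lay in an intron of a lncRNA gene, with 989 bp covered by H3K27ac replicate 1 and 333 bp by H3K27me3 replicate 2. The region of 2200 bp at chr1:149298001-149300200 was intergenic and had 468 bp covered by H3K27ac replicate 1. An H3K27me3 replicate 1 peak began 1.148 kb from its midpoint, just outside the region, and reached at least 10 kb from it. The nearest H3K27me3-on bin was 4400 bp away. Another region of 2200 bp, at chr17:1952601-1954800, was intergenic and had 1104 bp covered by H3K27ac replicate 1. This chromosome 17 region lay 2648 bp from a TSS of HIC1, a zinc finger transcriptional repressor. H3K27me3 covered 48 bp of it in replicate 1 and 445 bp in replicate 2. The region of 2000 bp at chr2:73402601-73404600 was intergenic, 18752 bp from the TSS of RAB11FIP5, which encodes a partner of the recycling endosome GTPase Rab11, and H3K27ac replicate 1 covered 1938 bp of it. H3K27ac replicate 2 had no peak at the last 4.

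**Figure D3:**
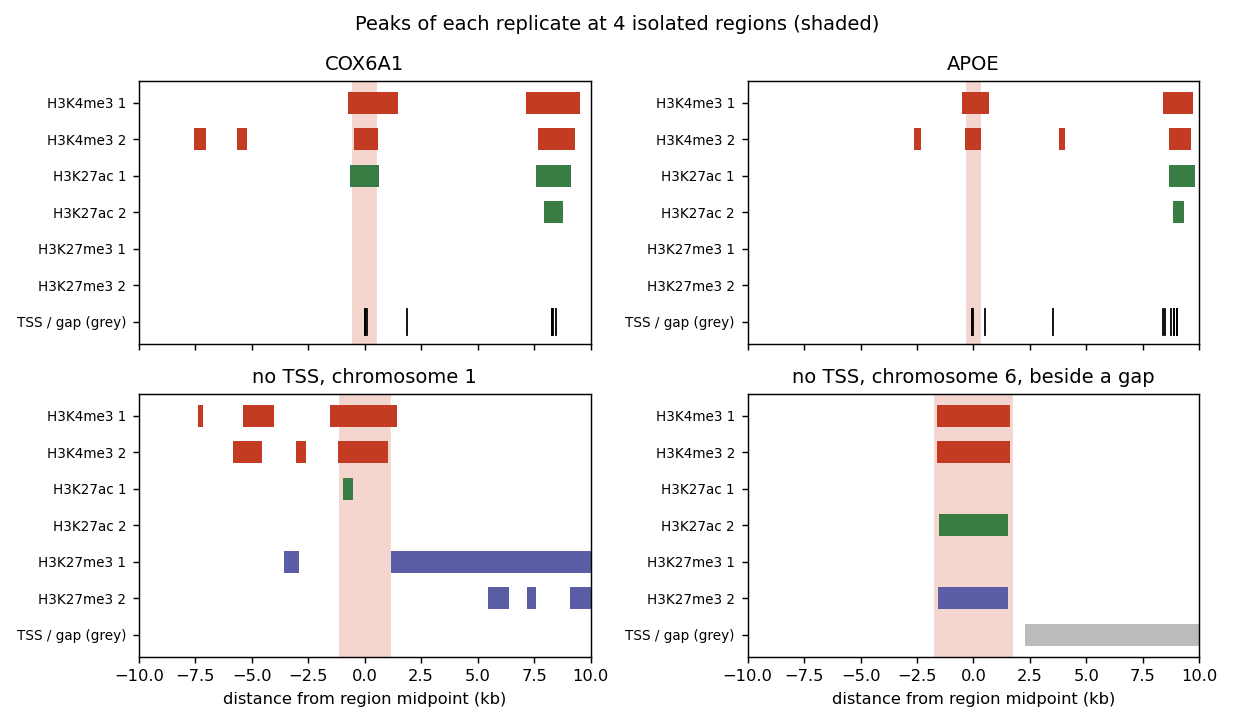
Peaks of each mark and replicate (rows) within 10 kb of the midpoint of 4 isolated regions (shaded), with TSS as black ticks and gaps of the reference in grey; the horizontal axis is the distance in kb. Inside the shading, COX6A1 has an H3K27ac peak in replicate 1 only, APOE in neither replicate, the chromosome 1 region a short one in replicate 1, and the chromosome 6 region H3K27ac and H3K27me3 peaks in replicate 2 only. Both replicates have an H3K27ac peak to the right of the shading at COX6A1 and APOE. At the chromosome 1 region, H3K27me3 peaks of both replicates lie to the right of the shading.

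The isolated regions were rich in CpG. The ratio of observed to expected CpG, which is near 1 where CpG is not depleted, had a median of 0.69, and 69.9% of the regions reached both 50% GC and a ratio of 0.6, the usual limits for a CpG island. With a TSS within 1 kb the median ratio was 0.71 and 77.6% reached both limits. Without a TSS it was 0.61 and 47.8% did. The median ratio was 0.76 over regions with H3K4me3 and H3K27ac and 0.81 over those with H3K4me3 and H3K27me3. Both limits were reached by 79.4% and 89.5% of these. Over H3K4me3-only regions with only H3K27me3 within 2 kb the median was 0.77 and 83.4% reached both. Over those with H3K27ac within 2 kb it was 0.66 and 52.4% did. The quartiles overlapped between these classes. The sequence was not used by the rule, but no test was made, since regions are not replicates of a condition.

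**Figure D4:**
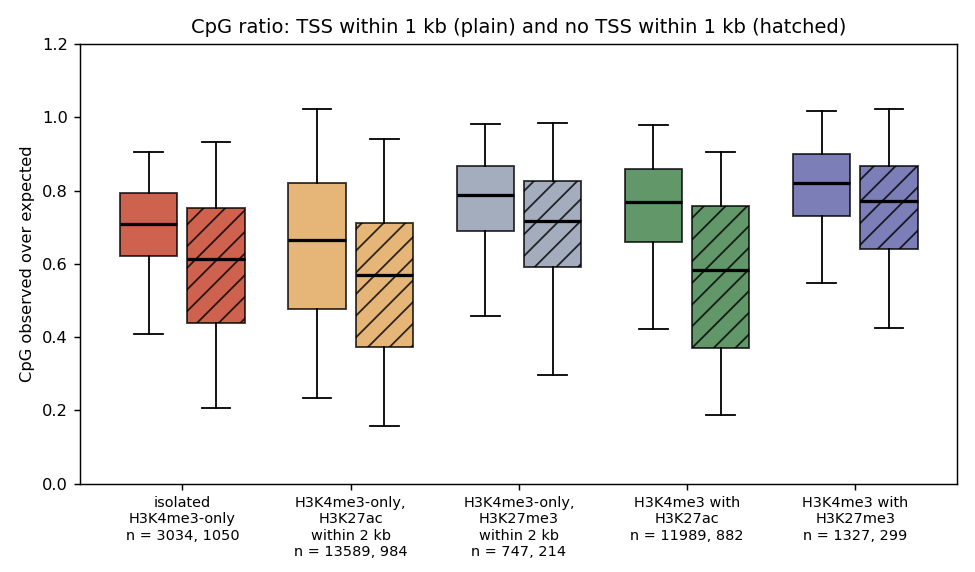
Observed over expected CpG (vertical axis) in each class of regions, with a TSS within 1 kb (plain) and without (hatched); boxes give quartiles and median, whiskers the 5th and 95th percentiles, and n both numbers of regions. Medians of the isolated regions are 0.71 and 0.61, and those of regions with H3K4me3 and H3K27ac 0.77 and 0.58.

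Of the 10 short motifs searched on both strands in 300 bp around each midpoint, the Sp1 letters GGGCGG were in 58.9% of the isolated windows, in 60.6% of those with H3K4me3 and H3K27ac, and in 61.6% of windows centred on all 19819 canonical protein-coding TSS. The ETS letters were in 7.37%, 9.39% and 13.5%. The NF-Y letters were in 19.7%, 17.6% and 32.7%. The letters TATAAA of the TATA box were in 3.48%, 2.89% and 8.08%. AAGATGGCG, the YY1 letters, were in 0.784%, 1.85% and 3.03%. CACGTG (E-box) was in 5.93%, 6.58% and 7.70%, TGACGTCA (CRE) in 0.686%, 0.925% and 2.38%, and TGAGTCA (AP-1 site) in 2.01%, 2.66% and 3.14%. The NRF1 letters were in 1.71%, 1.66% and 3.68%, and the B box letters in 1.18%, 1.45% and 0.898%. The Sp1 letters were the only ones over 50% in any of these 3 sets. A window centred on a region is displaced from the TSS, so the TSS-centred shares are a reference and not a like comparison.

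RNA-seq was not used by the rule. The FPKM of a gene is summed over all its transcripts, those from other TSS included. Entries labelled as the Y copy of a pseudoautosomal gene were left out. Expression was counted for protein-coding genes with an isolated region within 1 kb of a TSS and no bin with H3K4me3 and H3K27ac on at any TSS. There were 2290 such genes, of which 2241 were in the RNA-seq data. An FPKM of 1 or more in both libraries was found for 1481 of them (66.1%, 64.1 to 68.0). Over all 19600 protein-coding genes the share was 58.9%. The median FPKM was 2.68 in library 1 and 2.77 in library 2, below the medians of 3.27 and 3.39 over all protein-coding genes, and against 11.6 and 11.8 for the 10215 genes with an active promoter (H3K4me3 and H3K27ac). The share with an FPKM of at least 1 among the latter was 92.6%. Neither an active promoter nor an isolated region was found at 149 genes with an H3K4me3-only region near H3K27ac. The share among these 149 was 70.5% (62.7 to 77.2), with median FPKM of 3.57 in library 1 and 3.58 in library 2. It was 13.1% for 942 genes with H3K4me3 and H3K27me3 and neither an active promoter nor an isolated region. For 5891 genes with no H3K4me3 region it was 5.57%. Called from replicate 1 alone, isolated regions gave 406 such genes, 18.0% with an FPKM of at least 1, and from replicate 2 alone 3376 genes, 46.1%. With H3K27ac or H3K27me3 counted from either replicate, 281 genes were left, 22.4% of them at that level.

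These genes were not uniform. For 1822 genes whose isolated region had an H3K27ac peak in replicate 1 only, 76.7% (74.7 to 78.6) had an FPKM of 1 or more in both libraries, with medians of 3.83 and 3.88. For 416 genes with an H3K27ac peak in neither replicate, 83 (16.4 to 24.1%) did, with medians of 0.264 and 0.233. The latter lay closer to the genes with H3K4me3 and H3K27me3, whose medians were 0.0935 and 0.0892, than to the former. Among the 416, 66 genes had an H3K27me3 peak in 1 of the replicates and 12.1% of them reached an FPKM of 1, against 21.4% of the 350 with no peak of either mark. Width also went with expression. Of genes with regions of 1200 bp or more, 82.1% of 1040 with a replicate 1 peak and 32.0% of 100 without reached an FPKM of 1, and with regions under 800 bp 59.2% of 218 and 11.9% of 177 did. No difference between gene classes was tested, because all come from the same 2 libraries and neighbouring genes are not independent. In cultured cells taken in bulk, fewer cells that transcribe a gene and less RNA per cell cannot be told apart.

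**Figure D5:**
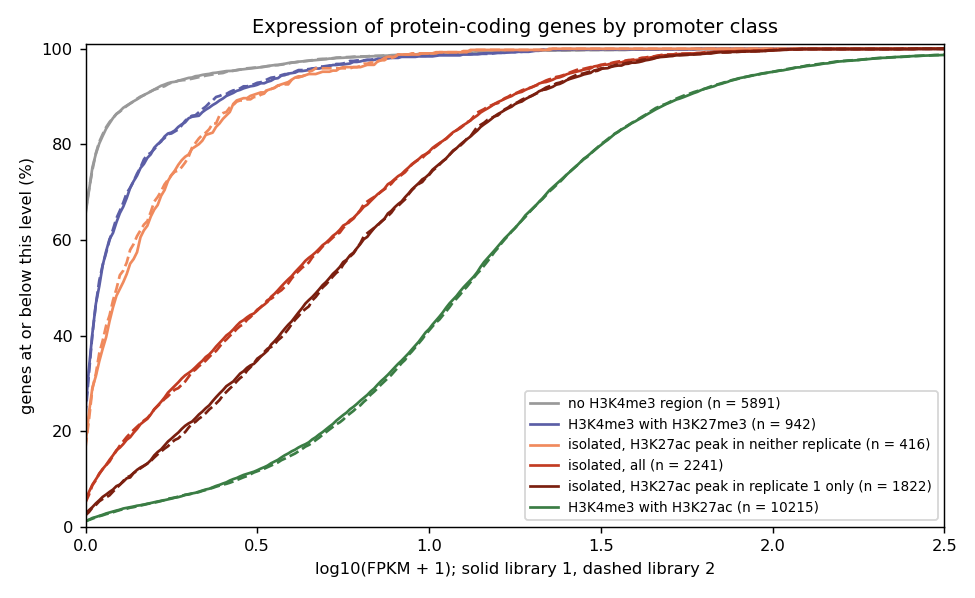
Percent of protein-coding genes at or below each expression level (vertical axis) against log10(FPKM + 1) (horizontal axis), solid for library 1 and dashed for library 2, for classes of promoters. The curve of all 2241 isolated genes lies between those of the 416 genes with an H3K27ac peak in neither replicate and the 1822 with one in replicate 1 only, and the curves of both libraries run together.

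Genes whose canonical TSS lay by the isolated region (2030 genes) had a median FPKM of 3.18, and those reached through another TSS only (211 genes) 0.383. The CpG island limits made less difference, with a median FPKM of 2.86 for 1849 genes whose region reached them and 2.03 for 392 whose region did not. The libraries differed little for these genes. Of 791 with a mean FPKM of at least 5, 8 differed between libraries by over 2-fold.

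The 10 genes of highest FPKM all had an H3K27ac peak in replicate 1 and none in replicate 2 at the isolated region, and none had an H3K27me3 peak there. Cytochrome c oxidase, the terminal enzyme of the respiratory chain, gave 2 of them. COX6A1 had an FPKM of 260 in library 1 and 233 in library 2, and its region of 1000 bp at chr12:120875401-120876400 held the canonical TSS and was wholly covered by a replicate 1 H3K27ac peak of 1271 bp. COX6B1 had 92.3 and 96.5, with a region of 800 bp at chr19:36139201-36140000. The higher library was library 1 for the former and library 2 for the latter.

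TUBA1A, an alpha tubulin, had an FPKM of 99 and 99.4. LGMN, the lysosomal asparaginyl endopeptidase legumain, had 108 and 100.3. Secreted and matrix products were also among them. CRISPLD2, a secreted cysteine-rich glycoprotein, had 105 and 109. EFEMP1, the matrix glycoprotein fibulin-3, had 102 and 111. COL6A1, a chain of collagen VI, had 96.0 and 92.5. The last 2 of the list encode membrane proteins. ITM2C had 88.5 and 85.1, and CD99, a surface glycoprotein, had 68.6 and 95.5, the pair that lay farthest apart among the 10 by SD (19). CD99 is a pseudoautosomal gene, so any FPKM assigned to its Y copy is not in these values.

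The nearest H3K27ac-on bin lay 4.2 kb from the COX6B1 region, 5.40 kb from that of CRISPLD2 and 6.80 kb from that of COL6A1, and it was 156.6 kb away for CD99. These genes thus differ in how close acetylated chromatin was called in both replicates.

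At the other end, 3 of the 416 genes with an H3K27ac peak in neither replicate had a mean FPKM of at least 10, and they are named here although chosen after their values were seen. APOE, an apolipoprotein of lipid transport, had 21.9 and 21.3 with an isolated region of 600 bp at chr19:45408801-45409400, 8.60 kb from the nearest H3K27ac-on bin. SCPEP1, a serine carboxypeptidase, had 12.2 and 12.2 with a region of 400 bp. PRSS8, the epithelial serine protease prostasin, had 12 and 11.6 with a region of 1200 bp, 2.60 kb from the nearest H3K27ac-on bin. CpG ratios were 0.31 for both APOE and PRSS8 and 0.75 for SCPEP1, against the median of 0.69.

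Of the 5 genes with the widest isolated regions, 1 on chromosome 8 is counted and not named, and the other 4 had an FPKM under 5 in each library. ABTB3, an ankyrin repeat and BTB domain protein, had a region of 4000 bp and FPKM of 4.28 and 2.95. MDGA1, a membrane-anchored adhesion protein, had 3600 bp and FPKM of 2.86 and 3.02, and it was the only 1 of the 4 named with an H3K27me3 peak, which covered 73 bp in replicate 2. FRAS1, a basement membrane protein that is mutated in Fraser syndrome and needed for kidney development, had 3400 bp and FPKM of 3.79 and 3.67. MISP3 had 3400 bp and FPKM of 0.605 and 0.280. All 4 had an H3K27ac peak in replicate 1, which covered 3400 bp at FRAS1, 3257 bp at ABTB3, 1802 bp at MISP3 and 1235 bp at MDGA1.

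Of 550 lncRNA genes with an isolated region and no active promoter, 40 (7.27%, 5.39 to 9.75) had an FPKM of 1 or more in both libraries, against 4.86% of all 14097 lncRNA genes and 18.7% of 2341 with an active promoter. The 5 of highest FPKM among all lncRNA genes with an isolated region were LINC00511 with 15.4 and 18.7, LINC00665 with 11.1 and 12.8, LINC01234 with 9.44 and 10.2, ENSG00000283633 with 8.22 and 11.2, and AGAP2-AS1 with 8.88 and 7.80. Their regions were 2000, 1200, 600, 2400 and 1000 bp wide, and an H3K27ac peak of replicate 1 lay at each. The region of LINC00665 was 9775 bp from its canonical TSS, and the others were within 1 kb of it. Whether counting used strand is not stated, so reads of AGAP2-AS1 and of genes it overlaps cannot be told apart.

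Gene lists are read against all protein-coding genes, of which 13.0% had an isolated region at a TSS, 51.6% had an active promoter and 58.9% had an FPKM of 1 or more in both libraries. Of 30 genes of the proximal tubule, the segment HK2 derives from, 4 had an isolated region, a share near that of all genes. Among the 30, 6 had an active promoter, 18 had no H3K4me3 region, and 8 reached that FPKM. SLC5A2, the glucose transporter SGLT2, had FPKM of 1.56 and 2.36, but its region of 400 bp lay 4557 bp from the canonical TSS. ALPL, the tissue-nonspecific alkaline phosphatase, had 0.428 and 0.380. CYP27B1, which makes the active form of vitamin D, had 0.759 and 0.961, and its region lay 1461 bp from the canonical TSS. GATM, an enzyme of creatine synthesis, had 1.91 and 2.0 and an active promoter at another TSS. Of these, GATM was the only gene with an H3K27ac peak at the isolated region, of 648 bp in replicate 1.

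Other nephron segments gave 1 of 20 genes with an isolated region, against 13.0% of all protein-coding genes. It was AQP3, a water channel of the collecting duct, with FPKM of 0.672 and 0.528 and no H3K27ac peak. Germ line genes gave 1 of 21, MAEL, which acts in the silencing of transposons, with 0.481 and 0.285. The MAEL region lay 13317 bp from the canonical TSS. None of the 20 nephron genes had an FPKM of 1 or more in both libraries, and 2 of the 21 germ line genes did, against 58.9% of all.

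Genes of the primary cilium, which proximal tubule cells carry, gave 8 of 25 with an isolated region, where 13.0% of all protein-coding genes had one. The other 17 had an active promoter alone, and 51.6% of all genes had an active promoter. All 25 had an FPKM of 1 or more in both libraries, which 58.9% of protein-coding genes had. The intraflagellar transport genes among the 8 were IFT43 with FPKM of 13.7 and 14.3, IFT27 with 12.6 and 12, IFT57 with 10.4 and 10.6, IFT46 with 9.10 and 8.51, and IFT172 with 7.0 and 7.16. The BBSome, a coat complex of ciliary membrane traffic, gave BBS1 with 6.39 and 7.37 and BBS5 with 2.32 and 2.56. IFT46 also had an active promoter at another TSS. All 8 isolated regions were 600 to 1200 bp wide and had an H3K27ac peak in replicate 1 and none in replicate 2.

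Gene families named by symbol differed in their share of these promoters. Of 515 genes whose symbol begins with ZNF and a digit, 98 (19%, 15.9 to 22.6) had an isolated region and no active promoter, against 2290 of 20098 protein-coding genes (11.4%). On chromosome 19, which holds 249 of them in clusters, the number was 64 (25.7%), and elsewhere 34 of 266 (12.8%). Active promoters were also more frequent among the ZNF genes, at 372 of 515 (72.2%) against 51.6% of all protein-coding genes. The 98 ZNF genes had a median FPKM of 1.55, against 2.75 for all genes with an isolated region and no active promoter. An FPKM of at least 1 was found for 64 of the 98 (65.3%), near the 66.1% of all such genes. ZNF784, the highest, had 10.2 and 10.3. Counts for other symbol families were 52 of 373 SLC genes (13.9%), 29 of 239 TMEM genes (12.1%), 25 of 137 CCDC genes (18.2%), 7 of 77 TRIM genes, 6 of 65 protocadherin genes, 2 of 39 HOX genes, 1 of 415 olfactory receptor genes and 0 of 55 keratin genes. The share near that of all genes for SLC and TMEM is no result about these families.

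Chromosome 19 held most isolated regions, 382 (9.35%), or 6.46 per Mb, against 1.35 per Mb over chromosomes 1 to 22 and X. It is also gene-dense, with 927 regions of H3K4me3 and H3K27ac, so that isolated regions were 0.41 per such region there and 0.32 over the genome. By this ratio, chromosomes 9 (0.45), X (0.44) and 15 (0.44) were above it, and chromosome 20 had the lowest (0.24).

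HK2 identity was checked with marker genes. Of 10 tubular epithelium markers, 7 had an FPKM of 1 or more in both libraries, led by KRT8 with 179 and 184 and including PAX8 with 100.2 and 104, while LRP2, the endocytic receptor megalin, was listed at 0 and CUBN had 0.0334 and 0.0416. None of the 10 had an isolated region at a TSS. Endothelial (4 measured) and leukocyte (5) markers summed to FPKM of at most 0.0404 and 0.472 in a library, while 5 podocyte markers summed to 19.1 and 22, with 2 of the 5 at an FPKM of 1 or more in both libraries. Isolated regions lay at TSS of the podocyte genes NPHS1, with FPKM of 0 and 0.0127, and SYNPO, with 14.7 and 16.2 and also an active promoter, and of the leukocyte gene CD14, with 0.363 and 0.143. Of 5 fibroblast markers 2 had an FPKM of at least 1, COL1A1 with 40.3 and 39.9 and LUM with 3.48 and 3.33. Their part in these results was not tested.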

How the data were processed

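Per the labels and the study's methods, the authors trimmed reads with cutadapt, mapped the ChIP-seq reads to hg19 (Bowtie2), discarded reads without a unique position and ran MACS2 on every replicate separately. The 6 deposited lists give only chromosome, start and end, with no peak height or read count. Sequencing depth per replicate, which the study gives, was not used here. For RNA-seq the authors used HISAT2 and StringTie 1.3.3 with GENCODE 27, and deposited coverage, FPKM and TPM per transcript. Those coordinates are on GRCh38, although the study's methods name hg19 for the RNA-seq mapping. They were not used with the peaks, which ended within GRCh37 chromosomes. The ratio of coverage to FPKM puts the aligned bases at 5.67 Gb for library 1 and 5.52 Gb for library 2.

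Bins, regions and gene classes were computed in Python 3.11.15 using pandas 2.3.3, numpy 2.4.6, scipy 1.17.1 and pysam 0.24.0, and drawn with matplotlib 3.10.9. The procedure was tested on simulated peaks. TSS, gene types and canonical transcripts came from GENCODE 44 lifted to GRCh37, whose sequence was used for base composition. Gene FPKM is the sum over transcripts, joined by Ensembl identifier. Regions were selected on the peaks, so widths and marks are descriptions. With 1 condition, no test was made, and Wilson intervals at 95% cover counting error only. The members, gene lists and motifs were chosen with earlier results of these data known. Genes named were the 10 of highest mean FPKM and the 5 with the widest region among protein-coding genes without an active promoter, 5 lncRNA genes of highest FPKM, the 5 widest regions without a TSS, and list members with an isolated region, with ties broken by identifier or position. Alternatives covered replicates, distance, bin cover, joining, width, TSS window, unit, filters and thresholds. The HiChIP and input samples were not used here. Some genes and sequences that these rules select are not reported here.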

Additional observations from a re-analysis of the deposited data

How the results depend on the processing

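The number and make-up of the isolated regions rested on the ChIP-seq replicates more than on any other choice tried. Called from 1 replicate of each mark, the number was 3109 (replicate 1 alone) to 49382 (replicate 2 alone), the median width 400 bp in either case, the share with any TSS 20.6 to 27.1%, the share with a protein-coding TSS 13.4 to 17.7%, the median CpG ratio 0.33 to 0.40, the share of genes with an FPKM of at least 1 18.0 to 46.1%, and the median FPKM 0.190 to 0.803. With H3K27ac and H3K27me3 counted as on in either replicate, 819 regions of median width 600 bp were left, with 57.8% at any TSS, 42.5% at a protein-coding TSS, 22.4% of 281 genes at an FPKM of 1 and a median FPKM of 0.273. The cause of the difference between the replicates was not tested.

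A whole covered bin gave 78.9% at any TSS, 67.2% at a protein-coding TSS, 69.3% of genes expressed and a median FPKM of 3.18. Regions of at least 400 bp had a median width of 1000 bp, 78.4% and 66.3% at a TSS, and a median FPKM of 2.83. A distance of 5 kb gave a median FPKM of 2.65. TSS windows of 500 bp and 5 kb gave 71.8% and 83.2% for any TSS, and 60.4% and 68.4% for protein-coding TSS. Leaving out regions within 1 Mb of a gap, chosen after seeing the data, gave 77.6% and 67.2% at a TSS and a median FPKM of 2.64. TPM in place of FPKM gave 78.8% and a median of 7.61, a filter at a mean FPKM of 0.1 gave 74.1% and 3.42, genes with an active promoter kept gave 69.2% and 3.18, and a threshold of 5 gave 33.5%. Without 1 RNA-seq library the share was 67.8 to 68.5% and the median FPKM 2.68 to 2.77. The mean log10 was 0.61 with a pseudocount of 1 and 0.36 with 0.1. Of 80 recomputed values, 35 stayed within 1.5 times for the number, within the 95% interval for shares, or within the spread between replicates. For the median width that spread was 0 bp, so any change counted as a move. The number from replicate 1 alone, 3109, counted as unchanged, although 27.1% of those regions had any TSS against 74.3%. The tally is therefore no measure of stability. No paired analysis was possible because there is 1 condition and no comparison between groups of samples. The peak lists hold no heights or read counts, so weak peaks in 1 replicate cannot be told apart from absent ones in the other.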

Other observations

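Some genes had an isolated region at 1 TSS and an active promoter, with H3K4me3 and H3K27ac on, at another. There were 317, of which 315 were in the RNA-seq data, and 91.4% of these had an FPKM of 1 or more in both libraries. In 292 of them transcripts were assigned to each kind of TSS. The summed FPKM of transcripts from the active TSS was higher in 175 genes in library 1 and 165 in library 2, and that of transcripts from the isolated TSS in 114 and 124. The median share of the isolated TSS in the sum of both was 29.7% and 30.9%, over 262 and 261 genes with a sum of at least 1. StringTie's division of reads between the transcripts of a gene sets these shares.

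The genes with the highest FPKM from the isolated TSS are named after their values were seen. TUBB2B, a beta tubulin, had 52.0 and 51.0 from the isolated TSS and 1.16 and 2.06 from the active TSS. PHGDH, the enzyme that opens serine synthesis, had 45.8 and 32.6 against 0.0168 and 3.50. LIPA, the lysosomal acid lipase, had 39.4 and 32.8 against 0.0676 and 0.107. In MAGED1 the order was the opposite, with 26.9 and 26.8 against 161 and 157.

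Isolated regions without a TSS also occurred in runs. With a spacing of at most 20 kb, 233 of the 1050 lay in 76 runs of at least 2, and 82 lay in 10 runs of at least 5. The longest runs by number were 13 regions at chr2:92290401-92325200, 10 at chr10:42384201-42400600 and 10 at chr17:22245601-22261600. Of the 75 regions with an H3K27ac peak in replicate 2 only, 13 were on chromosome 2, 15 on chromosome 10 and 9 on chromosome 17. These counts are over whole chromosomes and were not matched to the runs by position. Of the 1050 regions without a TSS, 48 (4.57%) lay within 10 kb of a gap of the reference, against 0.659% of those with a TSS. The distance from each run to a gap is not reported here, so the runs may include regions beside gaps.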
